A study of Mus musculus with 24 samples.

Results

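Haematopoietic stem cells (HSC) labelled knockout (KO) were compared with HSC labelled wild type (WT) across all genes, in the 6 of 24 RNA-seq libraries of the series whose subset label reads HSC, 3 of each genotype. The other 18 libraries, 3 of each genotype in the progenitor populations MPP1, MPP2 and MPP4, entered the fit to share its estimate of spread and served for 1 comparison at the end. The protocol names mouse bone marrow as the origin of the sorted cells, whereas the tissue label is blood, and every group, WT included, carried the treatment label Tamoxifen, the ligand that activates the inducible recombinase CreERT2. The deleted gene, the driver of any recombinase, the strain, the age of the mice and the number of mice behind a library are not given in the labels, so p-values speak only for the spread among these libraries, part of which may be technical.

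HSC are rare, mostly quiescent cells of the marrow that renew themselves and give rise to all blood lineages. They are sorted as lineage-negative cells bearing Kit and Sca-1 (encoded by Ly6a) and, among those, by the surface proteins CD150 (Slamf1), CD48, EPCR (Procr), CD34 and Flt3. P-bodies, named in the title of the study, are cytoplasmic granules in which untranslated mRNA is held together with decapping and decay enzymes, and the RNA helicase DDX6 is needed for their assembly. Immediate early genes, such as Fos, Jun and Egr1, are switched on within minutes by growth factors or by handling of the cells, and their mRNAs are short-lived.

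The 6 libraries held 3284501 to 3667509 counts. WT libraries carried more counts over genes that blood cells do not use: 1773 olfactory and vomeronasal receptor genes summed to 7546 to 8083 counts per WT library but 1955 to 2126 per KO-labelled one, and 28657 to 29359 genes had a count in WT against 21477 to 22613 in KO-labelled libraries. A background per base of gene was estimated from these receptors in each library, and it came to 20.8 to 23.8% of the counts in WT and 5.46 to 5.83% in KO-labelled libraries. It was subtracted gene by gene for a second fit. Levels are CPM, deposited counts scaled to a common library total, and "as deposited" and "after subtraction" name the 2 fits. A gene is said to have risen or fallen where edgeR's quasi-likelihood test gave an adjusted p below 0.05 with the same sign in both fits. The 24 long neuron-type genes that checked the estimate exceeded it 1.16 to 1.26 times in WT and 1.96 to 2.21 times in KO-labelled libraries, so background of long genes may be under-subtracted, more so in KO. In bulk RNA, fewer cells of a type and less RNA per cell cannot be told apart.

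Ddx6 was not lower in the KO-labelled libraries. It had 67, 55.2 and 64 CPM in the WT and 67.6, 93.6 and 67 CPM in the KO-labelled libraries, and the groups overlapped, with a log2 fold change of 0.29 ± 0.19 (SE, n = 3 against 3; adjusted p = 0.199) as deposited and -0.18 ± 0.18 (adjusted p = 0.599) after subtraction. The labels do not say that Ddx6 was the deleted gene, and counts over a whole gene would not show the loss of an exon, so this does not check the genotype labels. The libraries are therefore called KO-labelled throughout.

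Sort markers moved in several directions. Slamf1, which encodes CD150, had 75.4, 74 and 68.9 CPM in the WT and 284, 222 and 249 CPM in the KO-labelled libraries. All 3 KO-labelled values were above all WT values, and the log2 fold change was 1.79 ± 0.33 (SE, n = 3 against 3; adjusted p = 2.31e-05) as deposited but 1.32 ± 0.72 with an adjusted p of 0.26 after subtraction, where the spread over all 24 libraries was wide. In a fit of the 6 HSC libraries alone the estimate after subtraction was 1.28 with an adjusted p of 0.000185. Slamf1 was called after subtraction in only 4 of the 18 alternatives to the analysis, with an adjusted p of up to 0.693. Procr, which encodes the endothelial protein C receptor, a marker of HSC, had 49.3, 70.3 and 46.9 CPM in the WT and 19.5, 25.3 and 23.1 CPM in the KO-labelled libraries. The KO-labelled libraries were all lower, with a log2 fold change of -1.29 ± 0.37 (SE, n = 3 against 3; adjusted p = 0.00461) as deposited and -1.87 ± 0.42 (adjusted p = 0.00585) after subtraction.

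Of the sort markers of progenitors, Cd34 fell from 52 ± 3.91 to 30.1 ± 11.7 CPM (mean ± SD, n = 3), with a log2 fold change of -0.79 ± 0.20 (SE, n = 3 against 3; adjusted p = 0.00184) as deposited and -1.31 ± 0.24 (adjusted p = 0.000718) after subtraction. Flt3, the receptor of a cytokine that drives lymphoid-primed progenitors, fell from 63.3 ± 8.79 to 31.1 ± 2.54 CPM (-1.03 as deposited and -1.497 after subtraction on the log2 scale). Cd48, which is absent from HSC by the sort used for them, was low in both groups at 5.18 ± 2.63 to 0.988 ± 0.555 CPM. It fell by the test, but background was expected to give 72.1% of its WT count, and without WT library 2 its adjusted p was 0.0884. Kit, the receptor of stem cell factor, had 798 ± 14 to 1186 ± 49.5 CPM and a log2 fold change of 0.57 as deposited and 0.01 after subtraction, where the adjusted p was 0.95. Ly6a, which encodes Sca-1, had 31.5 ± 8.24 to 62 ± 5.42 CPM (0.97 as deposited and 0.42 after subtraction; adjusted p = 0.277 after subtraction). Kit, Ly6a, Slamf1 and Procr, which HSC carry, thus had counts in both groups, with Procr lower in KO-labelled libraries and Cd48 near the background. Whether the 2 groups hold the same cells was not tested.

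**Figure D1:**
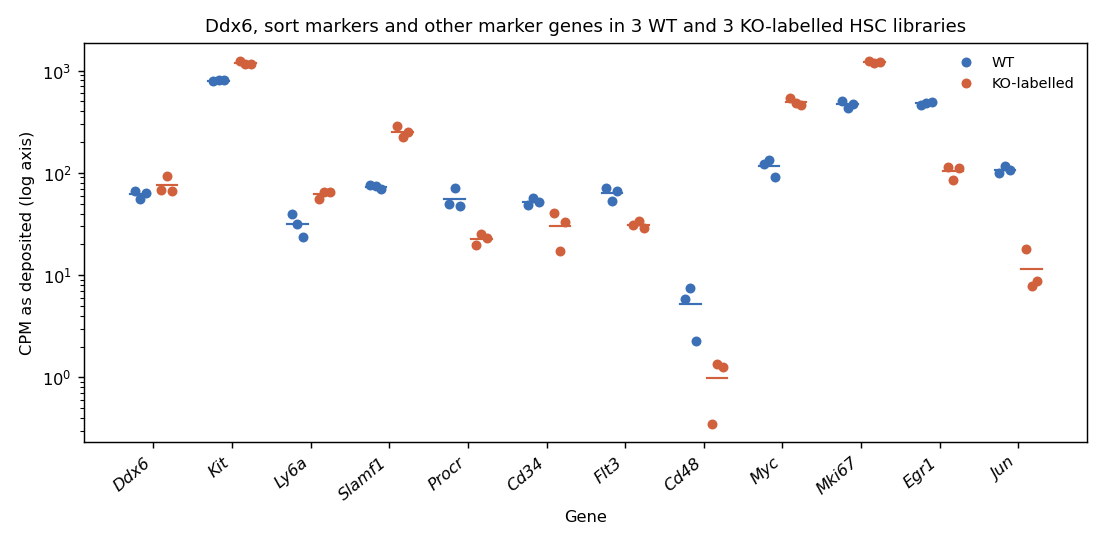
CPM as deposited (log axis) of Ddx6, 7 sort markers and 4 other marker genes, with 1 point for each of the 3 WT and 3 KO-labelled HSC libraries and a line at each group mean. The groups overlap for Ddx6 and lie apart for the other 11 genes, with Slamf1, Myc and Mki67 higher and Procr, Egr1 and Jun lower in the KO-labelled libraries.

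Across all genes the number of calls depended on the background. As deposited, 4012 of 21964 genes (18.3%) passed the test with higher and 5450 (24.8%) with lower values in KO-labelled HSC. In both fits, 729 of 18440 genes (3.95%) rose and 670 (3.63%) fell, and 9 genes were called with opposite signs in the 2 fits. Leaving out KO-labelled library 1, 2 or 3 lowered the falls to 389, 412 and 401. The median log2 fold change of genes above 64 CPM was 0.53 as deposited and 0.13 after subtraction, so values of well expressed genes as deposited are to be read against 0.53. Genes with under 5% of their WT count from background shifted too, from a median of 0.63 to 0.09. Library totals and scaling were set anew in the second fit, so a lower value there is not only background removed from that gene. Over all genes tested it was -0.31 as deposited, -0.46 with median-of-ratios size factors and -0.75 with scaling on genes of at least 50 CPM.

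The rises and falls differed in how much background their counts held. Of 1614 genes with less than 5% of their WT count expected from background, 230 rose and 47 fell. Of 6335 genes with 5 to 20%, 337 rose and 114 fell. Of 4928 genes with 20 to 50%, 140 rose and 223 fell, and of 5563 genes with more than 50% or no WT count, 22 rose and 286 fell. Most rises were thus of genes whose counts stood well above background, while most falls were of genes with 20% or more of their WT count expected from it. Among the 6132 genes of at least 20 CPM in 1 group with less than 20% of their WT count from background, 564 rose and 130 fell. Counts of list members below are to be read against these numbers and against 3.95% and 3.63% of all genes. A few calls in a list of expressed genes are not by themselves a result about that list.

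**Figure D2:**
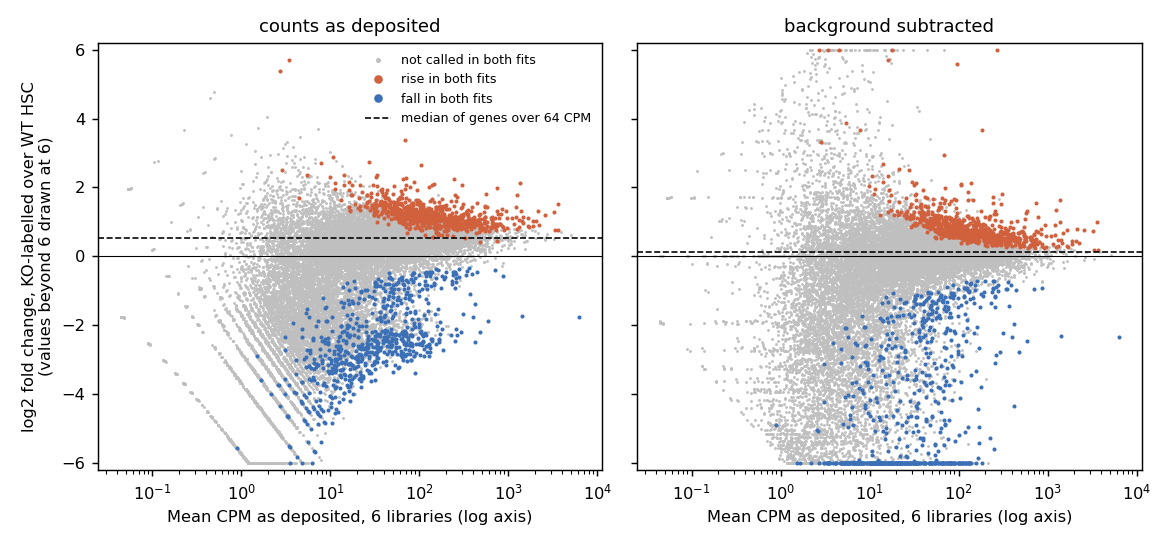
Log2 fold change of KO-labelled over WT HSC against mean CPM of the 6 libraries (log axis) for genes tested in both fits, as deposited on the left and after subtraction on the right. The 729 rises lie mostly among well expressed genes and the 670 falls mostly among genes of low to middle level, and the dashed line, the median of genes above 64 CPM, drops from 0.53 to 0.13.

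Many immediate early genes were lower in KO-labelled HSC. Of 31 tested, 13 fell and 1, Myc, rose, against 3.63% and 3.95% of all genes, and the median log2 fold change -1.48 as deposited and -2.04 after subtraction stood against -0.31 and -0.21 for all genes. Over the 18 alternatives to the analysis, 11 to 16 fell. Most members that fell encode transcription factors of the AP-1, early growth response and nuclear receptor families and proteins that end such a response.

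Egr1, a zinc finger transcription factor linked to HSC quiescence, had 463, 482 and 497 CPM in the WT and 115, 85.5 and 112 CPM in the KO-labelled libraries. The libraries of the groups did not overlap, with a log2 fold change of -2.20 ± 0.18 (SE, n = 3 against 3; adjusted p = 1.42e-13) as deposited and -2.78 ± 0.22 (adjusted p = 4.68e-09) after subtraction. The AP-1 subunit Jun had 100.3, 115 and 106 CPM in the WT and 18.1, 7.77 and 8.85 CPM in the KO-labelled libraries. Its difference was among the largest of the well expressed genes, with a log2 fold change of -3.21 ± 0.29 (SE, n = 3 against 3; adjusted p = 6.97e-12) as deposited and -3.79 ± 0.33 (adjusted p = 2.29e-08) after subtraction. Its partner Fos had 139.6, 134 and 115 CPM in the WT and 10.1, 22 and 15.5 CPM in the KO-labelled libraries (-3.03 as deposited and -3.62 after subtraction). Background was expected to give 0.175% of the WT count of Egr1, 0.482% of that of Jun and 0.423% of that of Fos.

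The AP-1 subunit Fosb had 602, 651 and 596 CPM in the WT and 171, 216 and 164 CPM in the KO-labelled libraries (-1.75 as deposited and -2.33 after subtraction). Junb had 52.6, 59.7 and 62.3 CPM in the WT and 21.9, 10.1 and 16.4 CPM in the KO-labelled libraries (-1.85 as deposited and -2.43 after subtraction). The orphan nuclear receptor Nr4a1 had 95, 80.4 and 109 CPM in the WT and 15.3, 7.43 and 23.1 CPM in the KO-labelled libraries (-2.63 as deposited and -3.25 after subtraction). In each of these genes the lowest WT library was above the highest KO-labelled one. Genes whose products shut the response down moved the same way. Zfp36, an RNA-binding protein that speeds the decay of AU-rich mRNAs, fell from 80.2 ± 22.2 to 35.6 ± 2.37 CPM (-1.17 as deposited and -1.75 after subtraction), and Dusp1, a phosphatase of MAP kinases, from 108 ± 8.89 to 46.6 ± 2.45 CPM (-1.21 as deposited and -1.75 after subtraction). The antiproliferative gene Btg2 fell from 16.1 ± 4.02 to 4.74 ± 2.31 CPM (-1.77 as deposited and -2.39 after subtraction). Klf6, Fosl2, Atf3 and Dusp2 made up the rest, and of these Atf3 had 29.7% of its WT count expected from background.

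**Figure D3:**
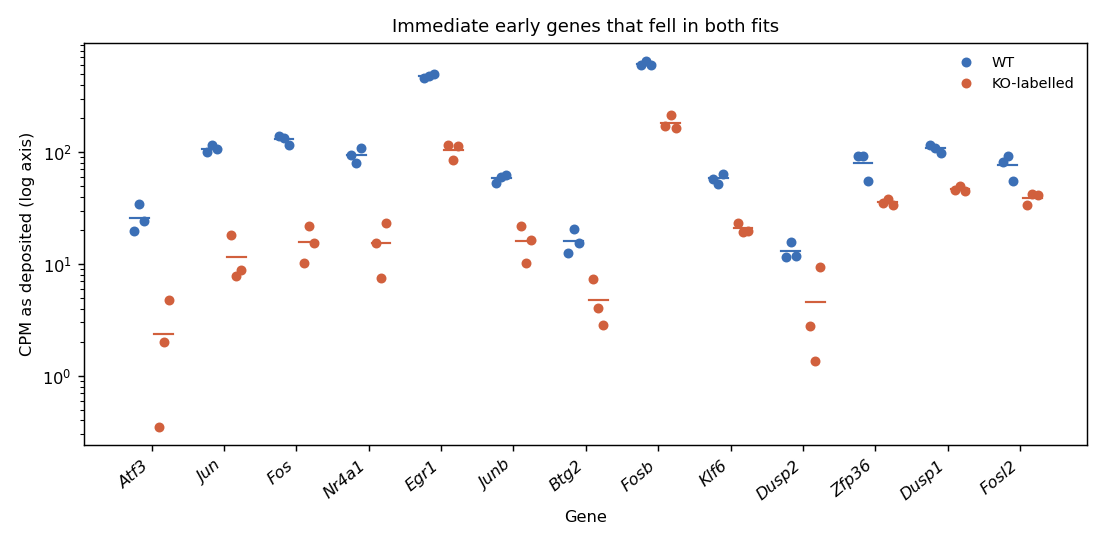
CPM as deposited (log axis) of the 13 immediate early genes that fell in both fits, ordered by fold change after subtraction, with 1 point for each of the 3 WT and 3 KO-labelled libraries and a line at each group mean. In all 13 genes the 3 WT libraries lie above the 3 KO-labelled ones, as the groups lie apart in 1336 of all 729 rises and 670 falls. Levels run from Fosb near 616 CPM in WT down to Dusp2 near 13.

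Promoter windows of these genes were searched for the sites through which such genes are classically induced, since the members moved together. RefSeq windows of 300 bases (250 before to 50 after the annotated start, build GRCm38.p6) were found for 12 of the 13. Egr1 was the gene without a window, so its promoter was not searched. The cyclic AMP response element TGACGTCA, a palindrome that reads the same on both strands, was present in 2 of the 12 (16.7%). It was present in 3.7% of the 4924 genes of at least 20 CPM with little background that had a window. Of all 13232 genes tested in both fits that had a window, 2.9% held it. The CArG box, the site of serum response factor, was present in 1 of 12 and in 1.5% of all. The AP-1 site was present in 0 of 12 and in 5.3% of all. These matches are a description of the windows and leave out sites further upstream. The windows of the 3 genes with a match are printed 5′ to 3′ with the matches in capitals. They lie at chr1:134079106-134079405, minus strand for Btg2, at chr17:26508423-26508722, minus strand for Dusp1 and at chr7:28379179-28379478, minus strand for Zfp36.
Btg2: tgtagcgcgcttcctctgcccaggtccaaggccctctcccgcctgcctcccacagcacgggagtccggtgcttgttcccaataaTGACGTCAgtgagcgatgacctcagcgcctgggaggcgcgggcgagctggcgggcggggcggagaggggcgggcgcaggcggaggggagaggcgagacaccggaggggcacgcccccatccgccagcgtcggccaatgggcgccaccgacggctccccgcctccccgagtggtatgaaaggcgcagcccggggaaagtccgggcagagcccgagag
Dusp1: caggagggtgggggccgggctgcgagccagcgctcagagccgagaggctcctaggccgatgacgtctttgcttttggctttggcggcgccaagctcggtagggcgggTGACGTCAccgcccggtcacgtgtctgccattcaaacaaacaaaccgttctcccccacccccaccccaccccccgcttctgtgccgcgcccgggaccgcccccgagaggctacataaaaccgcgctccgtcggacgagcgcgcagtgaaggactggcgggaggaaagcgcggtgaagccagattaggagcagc
Zfp36: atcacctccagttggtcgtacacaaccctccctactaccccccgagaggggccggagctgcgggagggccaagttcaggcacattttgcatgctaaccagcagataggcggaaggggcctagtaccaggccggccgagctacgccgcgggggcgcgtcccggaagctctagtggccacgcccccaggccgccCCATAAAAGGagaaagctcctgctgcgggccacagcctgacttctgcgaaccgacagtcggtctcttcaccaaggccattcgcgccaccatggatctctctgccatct
Counted from the start, the element lay at -166 to -159 in Btg2 and at -143 to -136 in Dusp1, and the CArG box at -58 to -49 in Zfp36.

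Myc, a transcription factor that drives growth and ribosome synthesis, was the 1 immediate early gene that rose. It had 123, 134 and 90.6 CPM in the WT and 540.1, 477 and 456 CPM in the KO-labelled libraries, with a log2 fold change of 2.08 ± 0.12 (SE, n = 3 against 3; adjusted p = 1.66e-17) as deposited and 1.52 ± 0.13 (adjusted p = 1.29e-08) after subtraction. The groups did not overlap, and 0.697% of the WT count was expected from background. Of the 12 members of the Myc and Max network tested, Mga rose as well, from 194 ± 18.1 to 348 ± 35.5 CPM (0.84 as deposited and 0.34 after subtraction), a call lost without WT library 2 or 3 or KO-labelled library 1 or 2 (adjusted p up to 0.128), and none fell.

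Some genes of ribosome building in the nucleolus rose too. Of 58 tested, 13 rose, 0 fell and 45 were not called (median log2 fold change 0.92 as deposited and 0.54 after subtraction), and across the alternatives 8 to 32 rose and 0 fell. Npm1, the abundant nucleolar chaperone that is mutated in acute myeloid leukemia, had 418, 395 and 407 CPM in the WT and 902, 869 and 917 CPM in the KO-labelled libraries (1.14 as deposited and 0.57 after subtraction). Nucleolin, encoded by Ncl, had 139, 146 and 131 CPM in the WT and 329, 368 and 299 CPM in the KO-labelled libraries (1.26 as deposited and 0.70 after subtraction). The groups lay apart in both genes. Nolc1 (1.00 after subtraction), Nop58 (0.67), Nop2 (1.02), Nop56 (0.92) and Gnl3 (1.14) rose too. Few genes of the structural proteins of the ribosome were called: of 72 cytosolic ribosomal protein genes 1 rose and 1 fell (median log2 fold change 0.51 as deposited and -0.06 after subtraction), and of 71 mitochondrial ones none was called (median log2 fold change 0.57 as deposited and 0.25 after subtraction). As deposited, 34 of the 74 cytosolic genes tested there had been called higher, and over the alternatives to the analysis 0 to 22 rose and 0 to 4 fell, so the direction of this group depends on scaling and background.

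Genes of nucleotide and polyamine synthesis included rises. Of 29 genes of nucleotide and one-carbon synthesis 6 rose and 0 fell (median log2 fold change 0.90 as deposited and 0.50 after subtraction). Cad, the enzyme that starts pyrimidine synthesis, had 49.9, 65.5 and 36.6 CPM in the WT and 147, 156 and 137 CPM in the KO-labelled libraries (1.53 as deposited and 1.06 after subtraction), and the mitochondrial folate enzyme Mthfd1l rose from 181 ± 13.8 to 340.3 ± 37 CPM (0.91 as deposited and 0.57 after subtraction). Srm, spermidine synthase, was among the largest rises of genes with little background, with 19.4, 39.8 and 8.86 CPM in the WT and 133, 103 and 88.5 CPM in the KO-labelled libraries (2.24 as deposited and 1.71 after subtraction). The cationic amino acid transporter Slc7a1, chosen after its values were seen, rose from 113 ± 17.6 to 343 ± 27.2 CPM (1.602 as deposited and 1.17 after subtraction).

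Several genes of the cell cycle were higher in KO-labelled HSC. Mki67, which encodes the proliferation antigen Ki-67, had 505, 432 and 474 CPM in the WT and 1229, 1195 and 1222 CPM in the KO-labelled libraries. No library overlapped, with a log2 fold change of 1.37 ± 0.07 (SE, n = 3 against 3; adjusted p = 3.22e-20) as deposited and 0.80 ± 0.07 (adjusted p = 1.18e-08) after subtraction. Of 36 genes of G2 and mitosis 10 rose and 0 fell (median log2 fold change 1.00 as deposited and 0.76 after subtraction), of 38 genes of DNA replication 8 rose and 0 fell (median log2 fold change 0.89 as deposited and 0.58 after subtraction), and of 25 cyclins, kinases, E2F factors and inhibitors of G1 7 rose and 0 fell (median log2 fold change 0.74 as deposited and 0.47 after subtraction). Over the alternatives 9 to 22 mitotic and 5 to 23 replication genes rose, with 0 falls.

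Among regulators, Cdk6, the kinase that takes HSC out of quiescence, had 650.0, 625 and 708 CPM in the WT and 1807, 1868 and 1683 CPM in the KO-labelled libraries (1.44 as deposited and 0.92 after subtraction). E2f8 rose from 43 ± 5.78 to 127 ± 15.4 CPM (1.56 as deposited and 1.06 after subtraction) and E2f3 from 215 ± 7.01 to 481 ± 35 CPM (1.16 as deposited and 0.66 after subtraction). Cyclin E2, encoded by Ccne2, had 4.99, 4.78 and 4 CPM in the WT and 9.76, 30.1 and 31.3 CPM in the KO-labelled libraries. KO-labelled library 1 was the lowest of its group and still above every WT library, and the call was lost without WT library 3 (adjusted p = 0.0535) or KO-labelled library 3. The mitotic kinase Plk1 had 49.6, 27.3 and 40.6 CPM in the WT and 144, 153 and 153 CPM in the KO-labelled libraries (1.94 as deposited and 1.41 after subtraction), and the spindle checkpoint gene Mad2l1 rose from 28 ± 3.28 to 89.8 ± 8.53 CPM (1.68 as deposited and 1.19 after subtraction). Of replication genes, Dtl, which marks factors for destruction in S phase, rose from 46.6 ± 4.91 to 146 ± 8.86 CPM (1.64 as deposited and 1.25 after subtraction), the helicase subunit Mcm5 from 90.9 ± 6.51 to 252 ± 18.8 CPM (1.47 as deposited and 0.94 after subtraction) and its partner Mcm6 from 55.1 ± 13.3 to 113 ± 11.5 CPM (1.04 as deposited and 0.57 after subtraction). Pola1, the polymerase subunit that begins each new DNA strand, rose from 131 ± 13.4 to 359.7 ± 13.3 CPM, and 40.5% of its WT count was expected from background, so that its log2 fold change was 1.45 as deposited and 1.55 after subtraction.

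The windows of the replication and mitosis genes that rose were searched likewise, for the E2F site (TTTCCCGC, TTTGGCGC, TTTCGCGC or TTTGCCGC on either strand, matches may overlap) and the CCAAT box (CCAAT on either strand), the elements known from promoters of these gene classes. Of the 18 genes, 16 had a window. An E2F site was present in 6 of the 16 (37.5%). It was present in 3.8% of the 13232 genes tested and in 5.3% of the 4924 genes of at least 20 CPM with little background. The 6 were all replication genes (Cdc6, Dtl, Lig1, Mcm5, Mcm6 and Pola1), and the windows of the mitosis genes held no E2F site. A CCAAT box was present in 11 of the 16 (68.8%), against 42.2% and 42.4%. Among the 455 rises with little background and a window, 9.5% held an E2F site, and among 96 such falls 3.1%. The windows of Mcm5, Mcm6 and Top2a are shown as examples with several matches, with E2F sites and CCAAT boxes (CCAAT or ATTGG on the strand shown) in capitals. They lie at chr8:75109259-75109558, plus strand for Mcm5, at chr1:128359656-128359955, minus strand for Mcm6 and at chr11:99024140-99024439, minus strand for Top2a, which encodes DNA topoisomerase II alpha and rose from 68 ± 20 to 176 ± 27.6 CPM.
Mcm5: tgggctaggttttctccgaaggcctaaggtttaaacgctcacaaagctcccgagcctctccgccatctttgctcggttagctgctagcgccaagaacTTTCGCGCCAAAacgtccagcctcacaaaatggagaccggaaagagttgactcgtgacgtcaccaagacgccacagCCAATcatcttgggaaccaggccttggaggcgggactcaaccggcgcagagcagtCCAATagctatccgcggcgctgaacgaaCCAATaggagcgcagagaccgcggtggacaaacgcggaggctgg
Mcm6: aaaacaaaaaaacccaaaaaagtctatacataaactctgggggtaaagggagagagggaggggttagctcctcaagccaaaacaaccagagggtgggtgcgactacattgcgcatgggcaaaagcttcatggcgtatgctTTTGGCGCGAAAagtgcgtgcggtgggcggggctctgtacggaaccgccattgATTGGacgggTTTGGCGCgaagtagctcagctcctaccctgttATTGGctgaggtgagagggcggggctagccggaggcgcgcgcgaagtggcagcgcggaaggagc
Top2a: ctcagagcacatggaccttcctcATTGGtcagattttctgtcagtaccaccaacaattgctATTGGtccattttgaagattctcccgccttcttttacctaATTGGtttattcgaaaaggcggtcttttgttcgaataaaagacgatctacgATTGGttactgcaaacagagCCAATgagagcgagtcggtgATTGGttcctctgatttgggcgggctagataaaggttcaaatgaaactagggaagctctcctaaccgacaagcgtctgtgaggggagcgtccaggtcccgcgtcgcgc
Mcm6 held 3 E2F sites and 2 CCAAT boxes, Mcm5 2 overlapping E2F sites and 3 CCAAT boxes, and Top2a 6 CCAAT boxes and no E2F site.

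Stem cell transcription factors moved both ways. Of 32 tested, 9 rose and 3 fell, with a median log2 fold change 0.52 as deposited and -0.01 after subtraction. Mecom, which is needed for the upkeep of HSC and is an oncogene in myeloid leukemia, had 1792, 1918 and 1904 CPM in the WT and 5296, 5205 and 5528 CPM in the KO-labelled libraries (1.51 as deposited and 1.01 after subtraction). Every KO-labelled library stood above every WT library. Bcl11a rose from 339 ± 15.9 to 748 ± 63.5 CPM (1.14 as deposited and 0.62 after subtraction) and Lmo2, an adaptor in the stem cell regulator complex, from 28.2 ± 5.52 to 109 ± 22 CPM (1.95 as deposited and 1.56 after subtraction). Gata2 and Gfi1b rose as well. Zbtb16, which encodes PLZF, fell from 129 ± 10.7 to 36.9 ± 16.6 CPM (-1.81 as deposited and -2.43 after subtraction). Sox6 fell from 226 ± 8.81 to 71.1 ± 16 CPM and Eya2 from 808 ± 36.8 to 616 ± 22.3 CPM (-0.39 as deposited and -0.94 after subtraction). Background was expected to give 22.8% of the WT count of Zbtb16, 40.9% of that of Sox6 and 3.56% of that of Eya2. Of 2 factors chosen after their values were seen, Meis1 had 1629 ± 41.7 to 2626 ± 114 CPM (0.69 as deposited and 0.13 after subtraction) and Hlf 1383 ± 35.2 to 1883 ± 89.9 CPM (0.45 as deposited and -0.13 after subtraction). Neither was called after subtraction, a change that includes the shift between the fits seen in genes with little background.

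Surface and other genes enriched in HSC were split. Of 32 surface and sort markers 1 rose and 8 fell (median log2 fold change 0.10 as deposited and -0.23 after subtraction). Beside Procr, Cd34, Flt3 and Cd48, the falls were Cd82, a tetraspanin of quiescent HSC, from 68.2 ± 5.18 to 32.9 ± 1.21 CPM (-1.05 as deposited and -1.57 after subtraction), Thy1, from 8.04 ± 1.91 to 1.56 ± 0.539 CPM, and Alcam and Robo4. The rise was Ly6e, from 253 ± 9.22 to 549.7 ± 41.5 CPM, with a log2 fold change of 0.55 after subtraction. Of 34 other stem cell genes 3 rose and 4 fell. Angpt1, a ligand of the receptor Tie2, had 1852, 1817 and 1997 CPM in the WT and 4378, 4607 and 4743 CPM in the KO-labelled libraries (1.28 as deposited and 0.73 after subtraction). Von Willebrand factor, encoded by Vwf and used to mark platelet-biased HSC, rose from 164 ± 14.2 to 439 ± 31.8 CPM (1.42 as deposited and 1.04 after subtraction), a call lost without WT library 1 or 3 or KO-labelled library 1. Mmrn1, a platelet protein also used as an HSC marker, had 168, 163 and 183 CPM in the WT and 47.4, 56.8 and 55 CPM in the KO-labelled libraries (-1.69 as deposited and -2.27 after subtraction). Vwf and Mmrn1, which are often read together, moved in opposite directions with no overlap of libraries in either.

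**Figure D4:**
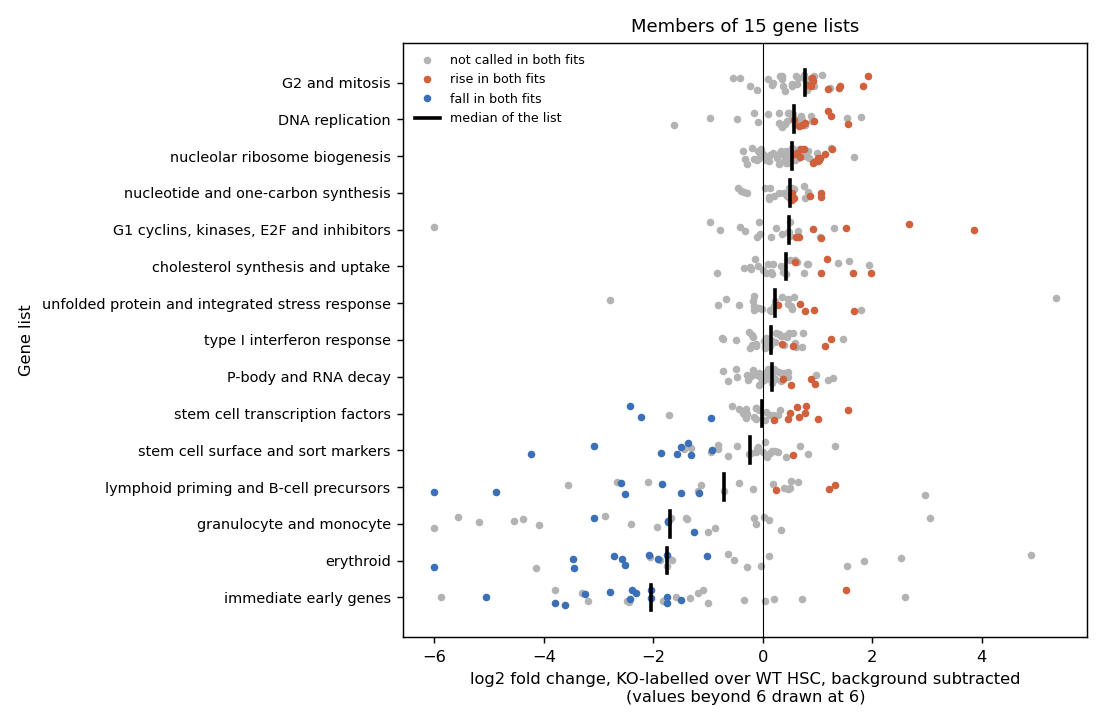
Log2 fold change of KO-labelled over WT HSC after subtraction for each tested member of 15 gene lists, with 1 point a gene, coloured by its call in both fits, and a bar at the median of the list. The medians run from 0.76 for G2 and mitosis down to -2.04 for immediate early genes.

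Genes of mature blood lineages differed by lineage, with falls and no rises in the erythroid and myeloid lists and calls in both directions in the lymphoid and megakaryocyte lists. Of 25 erythroid genes 10 fell and 0 rose (median log2 fold change -1.44 as deposited and -1.75 after subtraction), and their summed level was 590.4 to 595.5 CPM in WT and 355 to 419 CPM in KO-labelled libraries. Haemoglobin RNA was low in all 6 libraries: Hbb-bs had 35.2, 44.3 and 43.4 CPM in the WT and 20.9, 14.9 and 18.3 CPM in the KO-labelled libraries (-1.18 as deposited and -1.75 after subtraction), and Hba-a1 fell from 25.8 ± 7.2 to 6.32 ± 3 CPM (-2.02 as deposited and -2.58 after subtraction). Reads of Hba-a1 cannot be told from those of its near-identical copy Hba-a2. Car1 and Ermap fell too. Of the erythroid regulators, Gata1, chosen after its values were seen, had 3.05, 5.84 and 12.3 CPM in the WT and 38.7, 41.5 and 26.5 CPM in the KO-labelled libraries and Epor 5.08 ± 3.32 to 23.4 ± 7.14 CPM, but after subtraction their adjusted p was 0.0862 and 0.0954. Alas2 had no count in any of the 6 libraries, although background was expected to give 41.1 in WT and 10.6 in KO-labelled libraries. Whether the deposited counts cover this gene was not tested, so its 0 is not read as absence.

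Of 24 granulocyte and monocyte genes 4 fell and 0 rose (median log2 fold change -1.19 as deposited and -1.70 after subtraction), with a summed level of 451 to 516 CPM in WT and 325 to 382 CPM in KO-labelled libraries. Csf3r, the receptor of G-CSF, had 133, 133 and 143 CPM in the WT and 54.7, 57.4 and 70.5 CPM in the KO-labelled libraries (-1.16 as deposited and -1.73 after subtraction), and Csf2rb, the shared receptor chain for IL-3, IL-5 and GM-CSF, fell from 72.6 ± 14.2 to 43.5 ± 4.71 CPM (-0.74 as deposited and -1.26 after subtraction). Mpo fell from 11.5 ± 4.2 to 5.01 ± 2.12 CPM, and Cebpb and Itgam had no count. For Itgam background was expected to give 98.7 counts in WT and 25.4 in KO-labelled libraries. Whether the deposited counts cover it was not tested. Of 25 lymphoid genes 3 rose and 7 fell (median log2 fold change -0.80 as deposited and -0.72 after subtraction), with a summed level of 1493 to 1577 CPM in WT and 2032 to 2143 CPM in KO-labelled libraries, or 1713 to 1793 and 1810 to 1900 CPM after subtraction. Ikzf1 gave the most counts to this sum, with 5808 in WT and 8215 in KO-labelled libraries. After subtraction 10 of the lymphoid genes were higher and 15 lower in KO-labelled HSC. Notch1 and Dntt, the polymerase of antigen receptor joining, were among the falls. Of 24 megakaryocyte genes 3 rose and 2 fell, with a summed level of 2045 to 2202 and 3105 to 3390 CPM, or 2653 to 2785 and 2855 to 3091 CPM after subtraction. Ache, acetylcholinesterase, which is made by mouse megakaryocytes, had 11.6, 10.6 and 13.4 CPM in the WT and 115, 147 and 111 CPM in the KO-labelled libraries, the largest rise among genes with little background, with a log2 fold change of 3.39 ± 0.33 (SE, n = 3 against 3; adjusted p = 2.99e-11) as deposited and 2.94 ± 0.34 (adjusted p = 3.39e-06) after subtraction. The integrin Itgb3 fell from 109 ± 22.1 to 50.5 ± 18.4 CPM (-1.11 as deposited and -1.64 after subtraction).

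Markers of cells that the sort should remove gave few calls, and several stood well above the background. Summed over 3 libraries, the B-cell marker Cr2 had 316 counts in WT and 316 in KO-labelled HSC, with 70.5 and 18.2 expected from background, and the macrophage marker Cd163 had 558 and 366, with 45.7 and 11.8 expected. Of 12 genes of mature T and NK cells and 8 of mature B and plasma cells none was called in both fits. Their summed level was 66.0 to 90.7 CPM in WT and 43.8 to 62.4 CPM in KO-labelled libraries for T and NK cells, and 116 to 125 and 135 to 169 CPM for B and plasma cells. Cd55 gave the most counts to the B-cell sum (404 in WT and 666 in KO-labelled libraries). After subtraction 1 of these B-cell genes was higher and 7 were lower. Cd3d, Cd8b1 and Trbc2 were at 0 in the KO-labelled libraries, Ms4a1 and Mzb1 in all 6. For Ms4a1 background was expected to give 29.3 counts in WT and 7.54 in KO-labelled libraries. Whether the deposited counts cover it was not tested. Of 13 macrophage genes 1 fell (Adgre1, 66.4% background in WT, a call lost without WT library 2 or KO-labelled library 2 or 3) and 0 rose, with 141 to 183 CPM in WT and 85.3 to 118 CPM in KO-labelled libraries and C1qa and C1qb at 0 in the latter. Of 16 genes of stroma and endothelium none was called, with 1568 to 1605 and 1962 to 2007 CPM, of which stem cells also express several, and Cxcl12 and Vtn were at 0 in the KO-labelled libraries. Runx2 gave the most counts to that sum (9714 in WT and 11822 in KO-labelled libraries). After subtraction 2 of the stroma genes were higher and 14 lower. Of 14 mast cell, basophil and eosinophil genes 1 fell, with 183 to 216 and 232 to 284 CPM. Most of this sum was Mitf, with 1599 counts in WT and 2062 in KO-labelled libraries. After subtraction 4 of the genes were higher and 10 lower in KO-labelled HSC. The part of such cells in the erythroid, myeloid and lymphoid falls was not tested.

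Sterol synthesis and protein folding in the endoplasmic reticulum included several rises. For comparison, 564 of the 6132 genes of at least 20 CPM with little background rose. Of 29 cholesterol genes 5 rose and 0 fell (median log2 fold change 0.80 as deposited and 0.43 after subtraction). Sqle, squalene epoxidase, had 33, 22 and 25.4 CPM in the WT and 113, 110.1 and 118 CPM in the KO-labelled libraries (2.08 as deposited and 1.65 after subtraction). Every KO-labelled library was above every WT library. Cyp51, an enzyme of the pathway chosen after its values were seen, was not called after subtraction (adjusted p = 0.375). Of 27 genes of the unfolded protein and integrated stress responses 5 rose and 0 fell. The chaperone Hyou1 had 30.8, 45.4 and 20.6 CPM in the WT and 153, 131 and 146 CPM in the KO-labelled libraries (2.15 as deposited and 1.67 after subtraction), and calreticulin, encoded by Calr, rose from 201 ± 11.6 to 510.3 ± 13.7 CPM (1.34 as deposited and 0.77 after subtraction). Of 19 cytosolic heat shock genes 1 rose, Hsp90ab1, from 986 ± 86.9 to 1931 ± 90.1 CPM (0.97 as deposited and 0.39 after subtraction).

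Genes of energy metabolism included calls in both directions, to be read against 564 rises and 130 falls among the 6132 genes with little background. Of 27 genes of glycolysis and hypoxia 5 rose and 2 fell (median log2 fold change 0.52 as deposited and 0.39 after subtraction), with Ldha from 50.2 ± 6.27 to 129 ± 38 CPM (1.35 as deposited and 0.84 after subtraction), Gapdh, Gpi1, Hk1 and Hk2 higher and the oxygen sensors Egln1 and Egln3 lower. The fall of Egln1 was lost without WT library 2 or KO-labelled library 2 (adjusted p up to 0.110). Of 72 nuclear genes of oxidative phosphorylation 4 rose and 0 fell, among them Sdhc (1.19 as deposited and 0.66 after subtraction) and Cyc1 (1.505 as deposited and 0.95 after subtraction). Of 11 mitochondrially encoded genes 2 rose, mt-Cytb and mt-Nd5, by 0.37 and 0.31 after subtraction, and neither call held with scaling on genes of at least 50 CPM. Of 19 genes of oxidative stress and metallothioneins Mt1 rose and Gstm1 fell. Mt1 had 0, 0 and 0.286 CPM in the WT and 6.27, 4.73 and 9.16 CPM in the KO-labelled libraries. More than all of its WT count was expected from background, so no fold is given. The call of Gstm1 was lost without WT library 1 or KO-labelled library 1 (adjusted p up to 0.161). Of 34 lysosome and autophagy genes 2 rose and 1 fell.

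Calls among survival, adhesion and cytokine genes went both ways. The comparison for these lists is 564 rises and 130 falls among the 6132 genes with little background. Bcl2, the survival factor, had 303, 309.6 and 291 CPM in the WT and 1264, 1121 and 1189 CPM in the KO-labelled libraries with no overlap, and a log2 fold change of 1.98 ± 0.09 (SE, n = 3 against 3; adjusted p = 6.37e-22) as deposited and 1.54 ± 0.10 (adjusted p = 9.42e-11) after subtraction. It was the 1 call among 12 genes of its family. Of 21 genes of the p53 pathway 1 rose, Sesn1 (1.02 as deposited and 0.59 after subtraction). Of 37 genes of the type I interferon response 4 rose and 0 fell (median log2 fold change 0.60 as deposited and 0.15 after subtraction), led by Oas2, with 101, 97.9 and 139 CPM in the WT and 319, 407 and 432 CPM in the KO-labelled libraries (1.78 as deposited and 1.24 after subtraction), and of 20 genes of antigen presentation 2 rose. Of 24 genes of NF-kB and inflammation Rela rose and Nfkbiz fell, calls lost without WT library 1 or KO-labelled library 2 and, for Rela, also WT library 3 or KO-labelled library 1 (adjusted p up to 0.202 for Rela and 0.0672 for Nfkbiz). Of 21 genes of TGF-beta and BMP signalling Tgfb1 rose, with 122, 124 and 138 CPM in the WT and 396, 409.8 and 359.8 CPM in the KO-labelled libraries (1.603 as deposited and 1.05 after subtraction), and Ltbp1, which stores its product, fell from 108 ± 9.94 to 33.8 ± 7.07 CPM with 58.3% of the WT count from background. Of 30 genes of adhesion and migration 5 rose and 3 fell. Of 32 cytokine receptor and JAK-STAT genes 0 rose and 3 fell, namely Flt3, Csf2rb and Csf2rb2, the last a call lost without WT library 3 or KO-labelled library 2 (adjusted p up to 0.0758). The receptor chains of IL-18 were among the largest falls with little background: Il18r1 fell from 30.9 ± 9.53 to 8.01 ± 2.95 CPM (-1.95 as deposited and -2.59 after subtraction) and Il18rap from 36 ± 1.58 to 8.97 ± 5.26 CPM (-2.01 as deposited and -2.64 after subtraction).

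Genes of P-bodies and RNA decay, the machinery named in the title of the study, were mostly not called. Of 41 tested, 4 rose and 0 fell (median log2 fold change 0.59 as deposited and 0.16 after subtraction), with 3.95% of all genes rising and a median of 0.53 and 0.13 for genes above 64 CPM. Of the 6132 genes of at least 20 CPM with little background 564 rose, the comparison for this list and those below. Mex3a, an RNA-binding protein of stem cells, rose from 52.5 ± 16.9 to 149 ± 5.06 CPM (0.96 after subtraction), and Pnrc2, a bridge between decay and decapping factors, from 24.6 ± 3.32 to 65.9 ± 10.7 CPM (1.42 as deposited and 0.88 after subtraction). Of 40 translation initiation genes 4 rose and 0 fell (median log2 fold change 0.79 as deposited and 0.33 after subtraction), among them the cap-binding protein Eif4e, with 93.4, 104 and 106 CPM in the WT and 247, 247 and 268 CPM in the KO-labelled libraries (1.33 as deposited and 0.82 after subtraction), and Eif5b, from 82.8 ± 17.7 to 224 ± 14.7 CPM (1.43 as deposited and 1.01 after subtraction). Of 39 splicing genes 6 rose and 1 fell (median log2 fold change 0.68 as deposited and 0.21 after subtraction). Of 43 chromatin remodelers and polycomb genes 8 rose and 0 fell (median log2 fold change 0.59 as deposited and 0.17 after subtraction), led by Smarcc1, a core subunit of BAF, from 341 ± 4.99 to 751 ± 13.9 CPM (1.14 as deposited and 0.64 after subtraction). Ezh2, the polycomb methyltransferase, rose from 166 ± 7.32 to 333 ± 28.3 CPM (1.00 as deposited and 0.51 after subtraction). Of 17 genes of DNA methylation 3 rose, among them Tet2, from 212 ± 5.2 to 418 ± 34.4 CPM (0.98 as deposited and 0.48 after subtraction). Over the alternatives these lists ranged widely, with 2 to 20 rises for P-bodies, 3 to 23 for translation initiation, 0 to 20 for splicing and 5 to 26 for chromatin.

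The 12 largest falls after subtraction included the receptor kinase Alk, the glutamate receptor Grin2a, the adhesion protein Tenm2 and the splicing factor Rbfox3. Alk had 237, 165 and 235 CPM in the WT and 35.5, 28 and 30.3 CPM in the KO-labelled libraries, and Rbfox3 132, 101 and 136 CPM in the WT and 18.5, 17.6 and 13.6 CPM in the KO-labelled libraries. In these 12 genes 45.0 to 75.4% of the WT count and more than all of the KO-labelled count was expected from background, so their KO-labelled values were set to 0 and no fold is given. The largest rises after subtraction, Usp49, Il1rapl2, Kcnc1 and Cmss1, had over 100% of their WT count expected from background, and no fold is given for them either. Usp49, for example, had 8.04, 7.16 and 5.14 CPM in the WT and 27.9, 28.7 and 29.4 CPM in the KO-labelled libraries. Genes with less background were therefore ranked separately, a choice made after the values were seen.

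Among genes of at least 20 CPM with under 20% background in WT, the 15 largest rises included Ache, Cks1b, Srm and Hyou1. Cks1b, which aids the destruction of the cycle inhibitor p27, had 5.26, 11.4 and 16.6 CPM in the WT and 62, 59.1 and 42 CPM in the KO-labelled libraries (2.29 as deposited and 1.79 after subtraction). The fucosyltransferase Fut8 was also among the 15 largest, with 503, 490.2 and 545 CPM in the WT and 2194, 2165 and 2308 CPM in the KO-labelled libraries (2.12 as deposited and 1.64 after subtraction). The largest falls were Iqcn, Jun, Slc35f3, Fos and Nr4a1. Bgn, which encodes the matrix proteoglycan biglycan, had 149.9, 124 and 79.7 CPM in the WT and 30, 27 and 27.8 CPM in the KO-labelled libraries (-2.06 as deposited and -2.65 after subtraction), and Clic5 fell from 78.3 ± 9.53 to 18.1 ± 5.09 CPM (-2.11 as deposited and -2.81 after subtraction). Among genes chosen after their values were seen, the interleukin Il15 fell from 230.5 ± 27.1 to 121 ± 5.37 CPM (-0.92 as deposited and -1.47 after subtraction), and the retinoic acid receptor genes Rara and Rarg fell from 44.2 ± 13.9 to 19 ± 2.3 CPM and 63.4 ± 3.85 to 33.9 ± 2.9 CPM, with the call of Rarg lost without WT library 1 or any 1 KO-labelled library (adjusted p up to 0.0784). The long noncoding RNA Airn, which silences Igf2r on the same chromosome, fell from 136 ± 19.4 to 43.7 ± 6.87 CPM (-1.65 as deposited and -2.21 after subtraction). Its reads cannot be told from those of Igf2r, which it overlaps, without a stated strand. Srf, whose product binds the CArG box, rose from 28 ± 2.84 to 88.3 ± 20.6 CPM (1.66 as deposited and 1.14 after subtraction).

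The difference in HSC was set against the mean difference in MPP1, MPP2 and MPP4 as an interaction in the same fits. It was higher in HSC for 358 of 18440 genes (1.94%) and lower for 194 (1.05%) in both fits, the latter 125 without KO-labelled library 3. Proliferation genes were among those with a higher difference. Mki67 had a log2 fold change after subtraction of 0.80 in HSC, -0.66 in MPP1, -0.29 in MPP2 and 0.14 in MPP4, and its interaction was 1.07 ± 0.08 (adjusted p = 1.62e-09). Cdk6 had 0.92 in HSC against -0.03, 0.17 and -0.01, and Pola1 1.55 against -0.48, 0.10 and -0.09. Ache, named for its rise in HSC, had 2.94 against -2.99, -1.96 and -1.62 (interaction 5.13 ± 0.42, adjusted p = 1.41e-08). Myc was higher in KO-labelled libraries of every population by estimate, with 1.52 in HSC, 1.30 in MPP1, 0.78 in MPP2 and 0.34 in MPP4, and its interaction of 0.71 had an adjusted p of 0.00399.

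Receptors of myeloid cytokines were among the genes with a lower difference in HSC. Csf3r had -1.73 in HSC, -0.47 in MPP1, -0.72 in MPP2 and 0.90 in MPP4, and Csf2rb had -1.26 against -0.11, 0.17 and 2.06. Jun and Fos were not called different from the progenitors. Jun had -3.79 in HSC against -4.16, -2.93 and -3.11 (interaction adjusted p = 0.738), and Fos -3.62 against -3.09, -2.98 and -2.08 (adjusted p = 0.286). Egr1 had -2.78 against -3.33, -4.15 and -3.55, with an interaction of 0.89 and an adjusted p of 0.0424. Cd34 fell in HSC (-1.31) by more than in the progenitors (-0.89, -0.55 and 0.53), with an adjusted p of 0.0347.

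**Figure D5:**
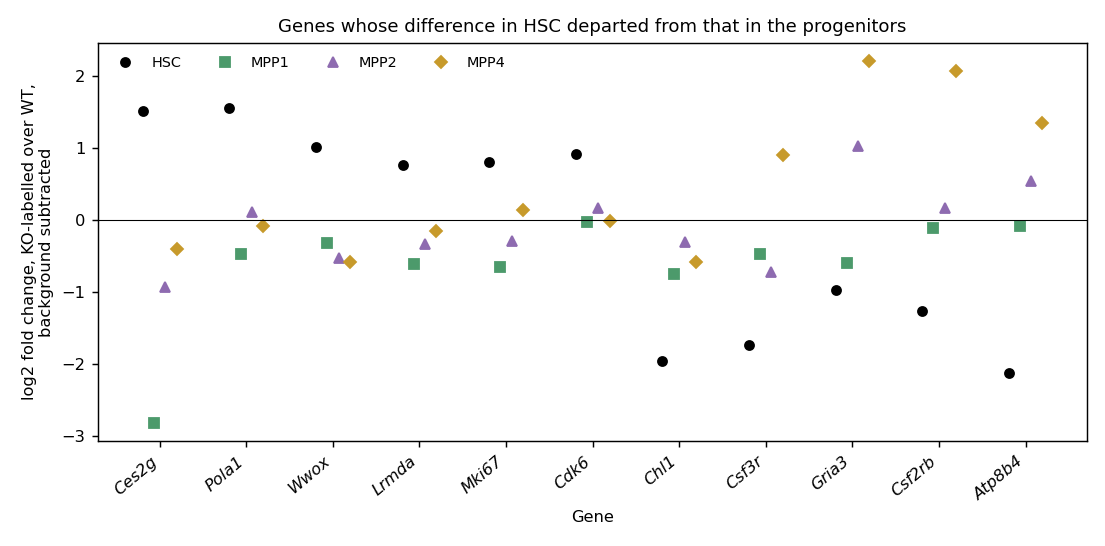
Log2 fold change of KO-labelled over WT libraries after subtraction in HSC, MPP1, MPP2 and MPP4 for 11 of the 12 genes chosen by the smallest p of the interaction (Pard3, at 0 in KO-labelled HSC after subtraction, is left out). HSC lie above the 3 progenitor populations for Ces2g, Pola1, Wwox, Lrmda, Mki67 and Cdk6 and below them for Chl1, Csf3r, Gria3, Csf2rb and Atp8b4.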

How the data were processed

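RNA-seq libraries of sorted mouse HSC (3 WT, 3 KO-labelled) were analysed with the 18 progenitor libraries of the same table. The authors deposited raw counts per gene for 56748 Ensembl genes. Per the submitters' processing notes, the genome build listed is mm39, and the tools listed are DESeq2 and SAMtools 1.12. The aligner, the counting program and its strand setting are not given in the sources used here, so reads of overlapping or antisense genes may be shared. Groups and replicate numbers came from the titles. Same-numbered WT and KO-labelled libraries did not deviate together (correlations 0.0382, 0.0113 and 0.0738), so the numbers were not used as pairs. Within a group, counts of any pair of libraries differed beyond sampling noise (chi-square per gene 5.40 to 7.41).

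Counts were fitted in edgeR 4.0.16 (R 4.3.3) as 1 quasi-likelihood model with a mean for each of 8 groups of 3 libraries, TMM scaling and filterByExpr (21964 genes, 16 residual degrees of freedom), with Benjamini-Hochberg adjustment over all genes and a threshold of 0.05. Standard errors (SE) were obtained by dividing the size of the log2 fold change by the root of F. Background per base was the summed count of 1773 olfactory and vomeronasal receptor genes over their summed gene span. It was multiplied by the span of each gene, subtracted, rounded and set to 0 where negative, and the fit was repeated. Spans came from GENCODE M21 (GRCm38), which holds 52125 (91.9%) of the identifiers. The 4623 genes without a span were left out of the second fit. The common biological coefficient of variation was 0.39 as deposited and 0.72 after subtraction. A name is shared by 959 genes.

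Named genes were Ddx6, the marker and sort genes, the 12 largest rises and falls after subtraction among genes of at least 20 CPM without overlap, up to 4 called members of each of 42 lists (otherwise up to 2 with the smallest p), and 6 genes in each direction of the interaction. Other list members were named after their values were seen. Some of the genes that these rules name are not reported here. The 15 largest changes in each direction among genes with under 20% background were added likewise. The members and lists were chosen with earlier results of these data known. Promoter windows are from RefSeq (GRCm38.p6). Alternatives were other scaling, filters, DESeq2 1.42.0, limma-voom (limma 3.58.1), the 6 HSC libraries alone, a replicate block, other sizes of background, and each HSC library left out. A background from 24 long neuron-type genes was added after the data were seen. The code was tested on simulated data.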

Additional observations from a re-analysis of the deposited data

Results flagged for a closer look

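The difference between KO-labelled and WT libraries in HSC was set against the mean difference in MPP1, MPP2 and MPP4. The 12 genes given here are the 6 in each direction with the smallest p of the interaction after subtraction. All 12 were called by the interaction term of edgeR's quasi-likelihood test in both fits. Other named genes, among them Ache, Myc, Egr1 and Cd34, were called in both fits too. The values are log2 differences as deposited. The difference was higher in HSC by 1.33 for Mki67, 1.10 for Cdk6, 1.41 for Pola1, 1.30 for Lrmda, 1.54 for Wwox and 3.07 for Ces2g. It was lower in HSC, with -2.33 for Atp8b4, -1.14 for Chl1, -1.34 for Csf3r, -1.70 for Csf2rb, -1.38 for Gria3 and -3.09 for Pard3. Lrmda, Wwox and Ces2g had opposite signs of the difference in HSC and in all 3 progenitor populations after subtraction. No group had 4 or more libraries, so single libraries could not be screened for values apart from the rest.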

How the results depend on the processing

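The calls as deposited fell most once background was subtracted, with 738 rises and 792 falls in the subtracted fit alone. Scaling on genes of at least 50 CPM gave 1343 rises as deposited, and keeping only genes that reached 20 CPM in 3 libraries gave 2750 falls. Median-of-ratios scaling gave 473 rises in both fits, and scaling on genes of at least 50 CPM gave 443, all of them among the 729. Rises in both fits were 456 with 1.5 times the background, 1472 with 0.67 times and 3079 with background per kb of exon in place of gene span. Falls in both fits were 264, 1652 and 4013 under the same 3 choices, 1381 without a filter on low counts, 1499 with DESeq2, 1773 with limma-voom and 1137 in the 6 HSC libraries alone. The higher differences from progenitors rose to 1010 with background per kb of exon. The lower ones were 604 without a filter, 492 with DESeq2, 298 with limma-voom, 1604 with background per kb of exon, 97 with 1.5 times the background and 484 with 0.67 times. Leaving out 1 HSC library gave 389 to 539 falls in both fits, 125 to 155 lower differences, 559 to 621 rises in both fits and 263 to 322 higher differences. With a replicate block there were 708 rises and 629 falls in both fits and 3979 and 5327 as deposited, and 354 and 192 differences from progenitors, so the block moved no count by over 1.5 times. Background from long neuron-type genes gave 581 rises and 689 falls, of which 579 and 513 were among the main calls. The sign of the deposited estimate reversed for Hlf after subtraction (-0.13), with 1.5 times the background (-0.27) and with background from neuron-type genes (-0.18), for Kit with the last 2 (-0.129 and -0.0389) and for Meis1 with 1.5 times the background (-0.0155). Counts limit the precision of genes near background, where a KO-labelled value of 0 after subtraction gives no fold.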
